A study of Rattus norvegicus with 24 samples.

Results

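The tight junction proteins of brain endothelium considered here were the products of 10 genes: Cldn5, Ocln, Tjp1, F11r, Jam2, Jam3, Cldn12, Mpdz, Cgnl1 and Esam. Every probe whose single gene symbol in the platform annotation was one of these was taken, which gave 17 of the 31099 probes of the array. All 10 genes had a probe, out of 14218 genes with one. Jam2 had 5 probes, Ocln, Tjp1 and Cgnl1 had 2 each, and the other 6 genes had 1. RNA of rat cortical brain microvessels was measured with 1 array per sample. In both liver failure groups a portocaval anastomosis, which leads portal blood around the liver, was made first. In HAL rats (8 arrays) the hepatic artery was ligated 24 h later, and in HEP rats (8 arrays) the whole liver was removed 24 h later. Sham rats (8 arrays) had a mock surgery in 2 steps, and animals of every group were killed 8 to 12 h past the final operation. Strain, sex and age are not given in the labels. Whether every array came from its own rat is not stated, so the p-values cover array-to-array spread only, and precision is bounded by the number of arrays.

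Tight junctions seal the cleft between neighbouring endothelial cells, so that solutes must pass through the cells rather than between them. Claudins and occludin span the membrane and meet their partners on the next cell. Immunoglobulin-like adhesion molecules (JAMs and ESAM) hold the contact, and scaffolds with PDZ domains or cingulin-like rods tie the strands to actin. In brain vessels this seal is a main part of the blood-brain barrier.

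Of each log2 signal the table at hand keeps the decimals and not the whole-number part. A signal below 10 has 9 such digits and a signal of 10 or above has 8, so the number of digits tells on which side of 10 a signal lies. Signals below 10 lose a digit where the first or last decimal is 0, and are then read too high. Probes with 1 to 14 cells of 9 digits on the 24 arrays were called near 10. Their level was read as 9 or 10 plus the decimals, and shorter cells were left missing. Signals just above 10, whose first decimal is 0, are among the missing cells, so no reading lies there. For all other probes only the decimals could be compared. They were placed on a circle of 1 log2 unit around the probe's mean, so a shift of a whole unit is not seen and one of more than 0.5 reads with the opposite sign. Cells that had lost zeros were placed as near to that mean as the lost zeros allow, and count among the arrays. A probe compared by decimals was tested only where its decimals clustered, with a resultant length of at least 0.7 (1 means identical decimals, 0 an even spread). This length was taken over all 24 arrays without regard to group. A strong difference between groups therefore lowers it and can take a probe out of the test. Of the 17 junction probes 5 lay near 10, 7 had no cell of 9 digits and so lay at or above 10 on all arrays, and 5 lay below 10. The 7 probes at or above 10 belonged to Cldn5, Ocln, Tjp1, F11r, Jam2, Cgnl1 and Esam. The other 3 genes, Jam3, Cldn12 and Mpdz, were near 10, so every gene had a probe near or above that level. All 5 near-10 probes and the probe of Cldn5 were tested, which left 11 probes described without a call. How the integer parts came to be lost is not known here.

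The labelled tissue was checked against marker genes. A probe at or above 10 throughout was found for 12 of 15 endothelial markers, against 4 of 12 pericyte, 4 of 9 smooth muscle, 5 of 9 perivascular fibroblast and 5 of 10 astrocyte markers. It was found for 2 of 9 oligodendrocyte and 1 of 3 red cell markers, and for 0 of 12 neuron, 0 of 9 microglia, 0 of 6 leukocyte and 0 of 7 choroid plexus markers. Across near-10 probes the median reading was lowest on HAL array 2 (9.95), HAL array 5 (9.99) and Sham array 3 (just under 10), while the other 21 arrays had medians of 10.12 to 10.20. Calls of junction genes are therefore also given without these 3 arrays. Signals just above 10 are left missing, so the reading itself widens the gap between these 3 medians and the others. The 3 arrays may thus differ less than their medians do. In such tissue RNA, fewer cells of a type and less RNA per cell cannot be told apart.

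Promoter sequences from RefSeq (rat assembly GRCr8) were held for 7 of the 10 genes. Those of Jam2, the junction gene that was higher on 1 probe in HAL, and of Cldn5, a tested claudin that was not called, are shown as the genomic context of a called and an uncalled member. Each runs over the 250 bases before the annotated start, 5′ to 3′ on the gene's strand. Capitals mark the motifs searched on both strands, CCAAT, the ETS core GGAA, the GC box GGGCGG, the SOX motif AACAAT and the FOX motif TGTTTAC.
Jam2, chr11:37317310-37317559, plus strand: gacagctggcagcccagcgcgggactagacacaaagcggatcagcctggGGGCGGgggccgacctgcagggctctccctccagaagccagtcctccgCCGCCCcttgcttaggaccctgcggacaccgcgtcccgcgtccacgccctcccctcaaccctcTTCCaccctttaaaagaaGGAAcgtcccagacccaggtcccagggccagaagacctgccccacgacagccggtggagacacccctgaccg
Cldn5, chr11:95718599-95718848, minus strand: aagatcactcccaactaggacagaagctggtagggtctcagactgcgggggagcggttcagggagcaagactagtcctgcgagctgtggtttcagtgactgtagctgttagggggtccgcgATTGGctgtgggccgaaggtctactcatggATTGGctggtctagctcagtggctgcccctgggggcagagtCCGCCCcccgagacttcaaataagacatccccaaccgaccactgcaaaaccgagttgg
The Jam2 window lies inside the gene's annotated span in the same assembly, so it precedes one of its starts only. It was 68% GC and held 2 GC boxes and 2 ETS cores. The Cldn5 window was 58.4% GC and held 2 CCAAT boxes and 1 GC box. Over all 33469 windows of this length 30.5% held a GC box, 34% a CCAAT box, 93.2% an ETS core, 10.3% a SOX motif and 3.21% a FOX motif. Of the 7 member windows 4 held a GC box, 2 a CCAAT box, 6 an ETS core, 2 a SOX motif and 0 a FOX motif. These counts describe letters only.

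In HAL, Mpdz, a scaffold with many PDZ domains, was lower than in Sham, and 1 probe of Jam2, a junctional adhesion molecule, was higher. In HEP, Mpdz was again lower, and no other junction probe passed. Cldn5, the main claudin of brain endothelium, did not pass in either model, and its 95% intervals lay within 0.16 of 0 in both. Thus 2 of 5 near-10 junction probes passed in HAL, where 3.72% of 2526 such probes passed, and 1 of 5 passed in HEP, where 2.18% did (1.19% higher and 0.99% lower) (limma, Benjamini-Hochberg adjusted p under 0.05 over all near-10 probes). These shares rest on 94 calls in HAL, 42 without the 3 arrays of low median, and on 55 in HEP, 137 without HEP array 8 and 29 without HEP array 7. The members were chosen with earlier results of these data known, so the shares are no test of the set. Of the 5 probes 2 are of Jam2, and with gene means 1 of 4 genes passed in HAL. At an unadjusted p under 0.05 there were 2 of 5 in HAL, against 17.1% of all, and 3 of 5 in HEP, against 14.5%. By decimals the 1 junction probe tested passed in neither model, and 0 of 5754 probes in HAL and 1 of 5754 in HEP (0.0174%) did. At an unadjusted p under 0.05 these were 705 probes (12.3%) and 380 (6.6%). The limit on clustering can take out probes that differ strongly between groups, so the decimal shares describe only the probes left. The median difference of the 5 near-10 probes was 0.17 in HAL and 0.34 in HEP on the log2 scale, against -0.03 and -0.00 over all near-10 probes. Both comparisons use the same 8 Sham arrays.

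**Figure D1:**
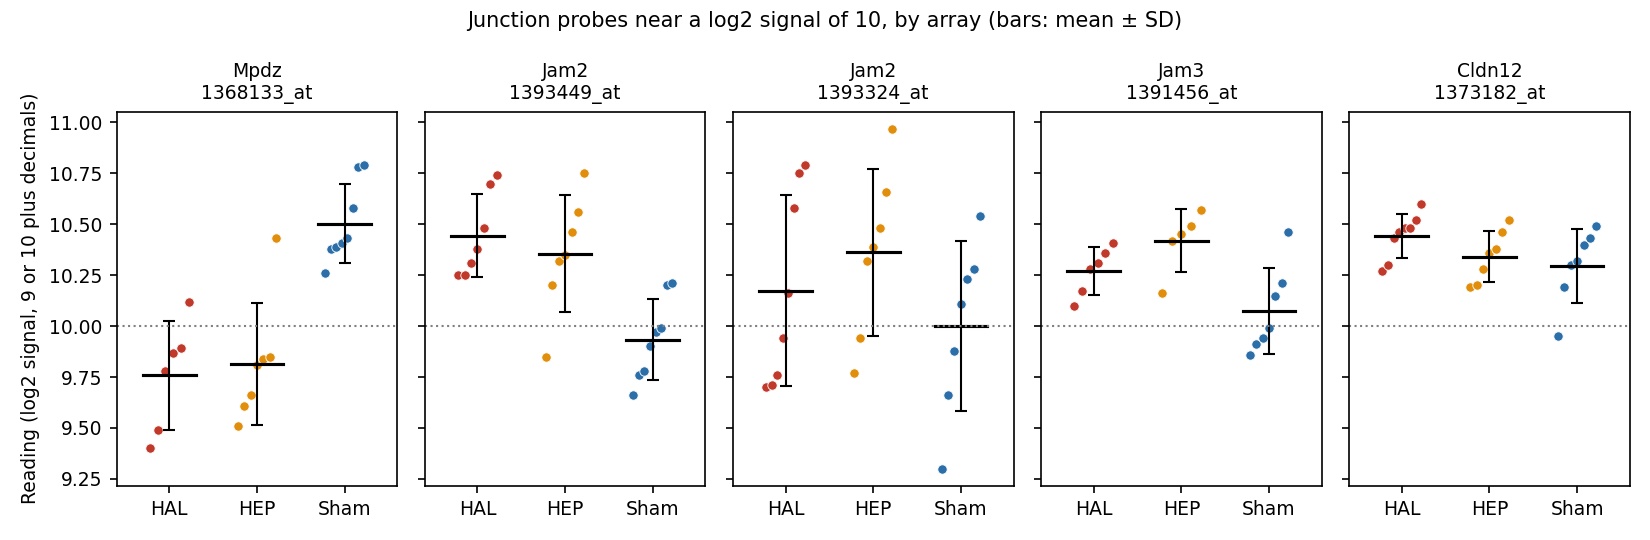
Readings of the 5 junction probes near a log2 signal of 10 (y axis, log2 signal) in HAL, HEP and Sham, 1 point per array read, with bars for the mean and whiskers for 1 SD. All 6 HAL arrays read for Mpdz lie below the lowest Sham array (10.26), and all 7 HAL arrays read for Jam2 1393449_at lie above the highest Sham array (10.21).

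Among the membrane-spanning strand proteins, Cldn5, whose loss opens the barrier to small molecules in mice, had decimals of 0.58 to 0.92 in HAL (median 0.75), 0.77 to 0.86 in HEP (median 0.82) and 0.64 to 1.04 in Sham (median 0.80, n = 8 arrays each). The groups overlapped, and the HEP arrays lay closest together, with an SD of 0.04 against 0.12 in HAL and 0.11 in Sham. The log2 difference was -0.056 in HAL (SE 0.0535, 95% interval -0.16 to 0.0509, adjusted p = 0.714 in limma) and 0.0126 in HEP (95% interval -0.0943 to 0.12, adjusted p = 0.971 in limma). HAL array 2 was the lowest of the HAL arrays and Sham array 3 the highest of the Sham arrays. Without the 3 arrays of low median the HAL difference was 0.000215. On this probe 5 cells had under 8 digits and were placed near the probe's mean. With these cells left missing the differences were -0.00508 in HAL and 0.0436 in HEP (adjusted p = 0.985 and 0.927 in limma).

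Cldn12, another claudin reported in brain endothelium, read 10.27 to 10.60 in HAL (median 10.47, n = 8), 10.19 to 10.52 in HEP (median 10.36, n = 7) and 9.95 to 10.49 in Sham (median 10.32, n = 7). It was at 10 or above on all 8 HAL and all 7 HEP arrays read and on 6 of 7 Sham arrays, and the groups overlapped. The differences were 0.15 in HAL (95% interval -0.0695 to 0.36, adjusted p = 0.529 in limma) and 0.0444 in HEP (95% interval -0.18 to 0.27, adjusted p = 0.914 in limma). The low Sham reading, 9.95, was that of Sham array 3, and without that array the HEP difference was -0.0137.

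Ocln, which encodes occludin, a strand protein that tunes rather than forms the seal, had decimals of 0.12 to 0.85 in HAL (median 0.32), 0.33 to 0.70 in HEP (median 0.49) and 0.17 to 0.45 in Sham (median 0.31, n = 8 each) on its probe at or above 10, 1378753_at. Of the 8 HEP arrays 6 lay above the highest Sham array and all 8 above the Sham median, while the HAL arrays spread to both sides of Sham. The resultant length was 0.543, too low for the main test. An exact permutation test of whether 2 groups' decimals cluster apart, which has no direction, gave p = 0.183 in HAL and p = 0.0109 in HEP (12870 splits of 16 arrays, unadjusted). The shortest way between the circular means was -0.10 in HAL and 0.16 in HEP. The fit over all 28572 probes outside the near-10 range, with no limit on the resultant length, gave 0.0772 for HAL (adjusted p = 0.786 in limma) and 0.17 for HEP (adjusted p = 0.615 in limma). The sign thus differed between these measures in HAL. The second probe, 1398281_at, lay below 10 and its decimals were spread almost evenly (resultant length 0.117).

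The 12 probes outside the near-10 range gave 24 such exact tests, of which 8 had an unadjusted p under 0.05. They belonged to Ocln, Tjp1, Cgnl1 and 2 probes of Jam2. The exact test was not run over other probes, so what share of all probes would reach such a p is not known. In the limma fit without the limit 0 of these 12 probes passed in either model, where 51 of 28572 (0.178%) passed in HAL and 2 (0.007%) in HEP. At an unadjusted p under 0.05 there were 3 of 12 in each model, against 11.6% of all probes in HAL and 8.98% in HEP. Both were added after the data had been seen.

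**Figure D2:**
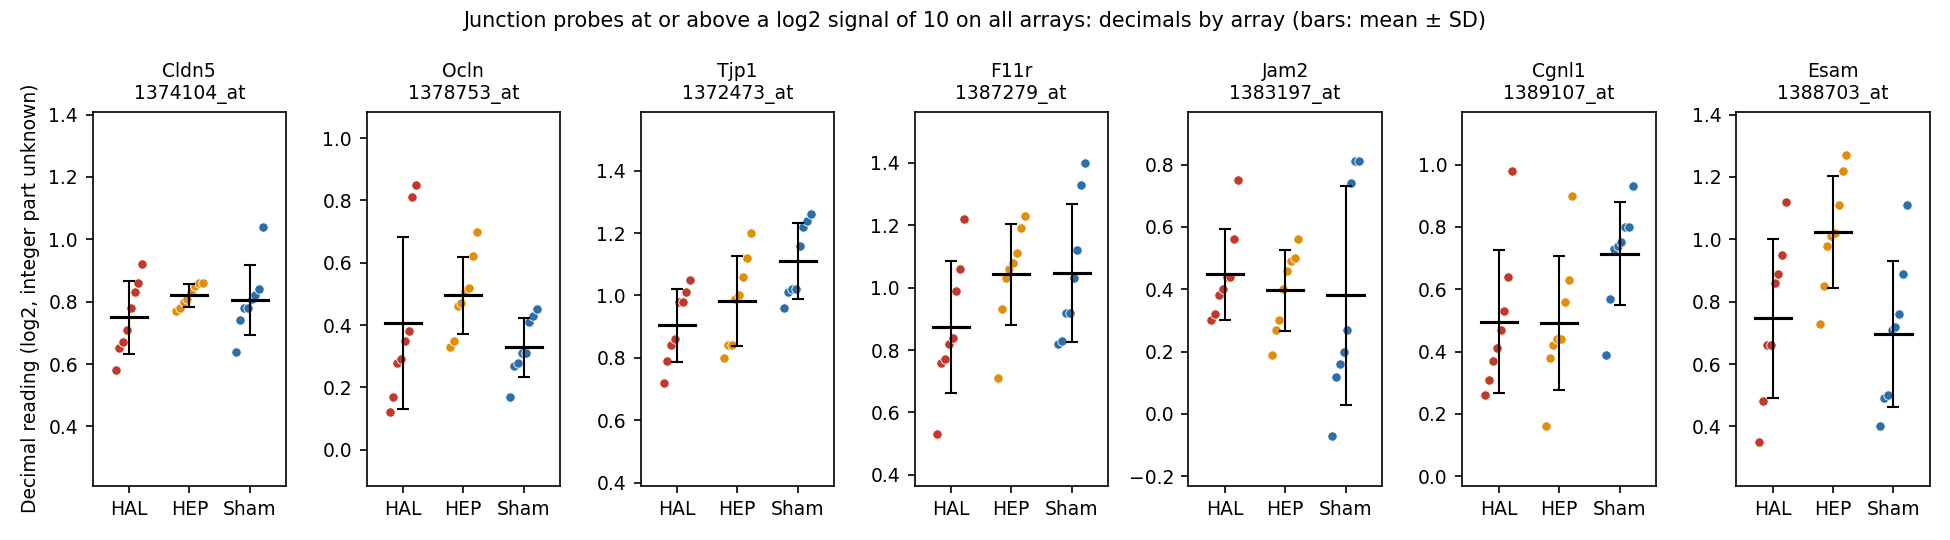
Decimals of the log2 signal (y axis, log2 units, integer part unknown) of the 7 junction probes at or above 10 on all arrays, in HAL, HEP and Sham, 1 point per array, with bars for the mean and whiskers for 1 SD. Values above 1 or below 0 continue the circle past a whole unit. Cldn5 is the tightest of the 7, and in Ocln 6 of 8 HEP arrays lie above the highest Sham array (0.45).

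The adhesion molecules were led by Jam2 (JAM-B), which binds across endothelial contacts. Its probe 1393449_at read 10.25 to 10.74 in HAL (median 10.38, n = 7), 9.85 to 10.75 in HEP (median 10.35, n = 7) and 9.66 to 10.21 in Sham (median 9.94, n = 8). It was at 10 or above on 7 of 7 HAL, 6 of 7 HEP and 2 of 8 Sham arrays read. The HAL and Sham arrays read did not overlap, as for 2.69% of near-10 probes, and 5 of 7 HEP arrays lay above the highest Sham array. HAL array 7 was not read, and a signal just above 10 there would fall within the Sham range. The difference was 0.51 in HAL (SE 0.13, 95% interval 0.23 to 0.79, adjusted p = 0.0358 in limma) and 0.42 in HEP (95% interval 0.14 to 0.70), above the threshold (adjusted p = 0.102 in limma). The HAL call was close to the threshold. It ended without any one of HAL arrays 1, 5, 6 and 8 and Sham arrays 1, 2, 5 and 6 (adjusted p 0.0517 to 0.0727 in limma), and without the 3 arrays of low median (difference 0.49, adjusted p = 0.0931 in limma). The HAL call also ended with leading zeros put back into short cells (difference 0.45, adjusted p = 0.0576 in limma). In HEP the probe was called without HEP array 8, the array at 9.85 (difference 0.50, adjusted p = 0.0208 in limma).

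The other Jam2 probes did not all show the same. Probe 1393324_at, also near 10, read 9.70 to 10.79 in HAL (median 10.05, n = 8), 9.77 to 10.97 in HEP (median 10.39, n = 7) and 9.30 to 10.54 in Sham (median 10.11, n = 7), with all 3 groups overlapping. Its differences were 0.17 in HAL (95% interval -0.28 to 0.63, adjusted p = 0.759 in limma) and 0.36 in HEP (95% interval -0.10 to 0.83, adjusted p = 0.495 in limma). Averaging both near-10 probes gave a HAL difference of 0.36, above the threshold (adjusted p = 0.148 in limma).

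Probe 1380244_at of Jam2 lay below 10. Its decimals were 0.09 to 0.73 in HAL (median 0.45), 0.24 to 0.63 in HEP (median 0.42) and 0.12 to 0.42 in Sham (median 0.22, n = 8 each). In HAL 5 of 8 arrays and in HEP 4 of 8 arrays lay above the highest Sham array. The shortest way between circular means was 0.20 in HAL (exact permutation p = 0.0364) and 0.16 in HEP (exact permutation p = 0.0396), while the fit without the limit gave adjusted p of 0.348 and 0.545 in limma.

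On the Jam2 probe at or above 10, 1383197_at, the liver failure arrays clustered and the Sham arrays did not. Circular means were 0.43 in HAL (resultant length 0.709), 0.40 in HEP (0.731) and 0.01 in Sham (0.386). The decimals of HAL and Sham, and of HEP and Sham, clustered apart with exact permutation p = 0.0104 and p = 0.00653. The shortest ways of 0.42 and 0.39 come near 0.5, the size at which the sign turns, so this probe gives no settled direction. The fit without the limit, whose common centre splits the Sham decimals, gave 0.0696 in HAL (adjusted p = 0.85 in limma) and 0.0143 in HEP (adjusted p = 0.989 in limma). The fifth probe, 1392309_at, lay below 10 and its decimals were spread over the circle in all groups (resultant length 0.082).

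Jam3 (JAM-C) read 10.10 to 10.41 in HAL (median 10.30, n = 6), 10.16 to 10.57 in HEP (median 10.45, n = 5) and 9.86 to 10.46 in Sham (median 9.99, n = 7). All HAL and HEP arrays read were at 10 or above and above the Sham median, against 3 of 7 Sham arrays at 10 or above, but the highest Sham array overlapped both groups. The differences were 0.20 in HAL (95% interval -0.0661 to 0.46, adjusted p = 0.472 in limma) and 0.34 in HEP (95% interval 0.066 to 0.62, adjusted p = 0.205 in limma). Neither passed, and cells were too short to be read on 2 HAL, 3 HEP and 1 Sham arrays. With leading zeros put back into short cells the differences were smaller, 0.14 in HAL and 0.19 in HEP (adjusted p = 0.576 and 0.487 in limma).

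F11r (JAM-A), the adhesion molecule shared by epithelia, endothelia and platelets, had decimals of 0.53 to 1.22 in HAL (median 0.83), 0.71 to 1.23 in HEP (median 1.07) and 0.82 to 1.40 in Sham (median 0.97, n = 8 each). The groups overlapped widely. Exact permutation p-values were 0.439 in HAL and 0.445 in HEP.

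Esam, the endothelial cell-selective adhesion molecule, had decimals of 0.35 to 1.12 in HAL (median 0.76), 0.73 to 1.27 in HEP (median 1.01) and 0.40 to 1.11 in Sham (median 0.72, n = 8 each). All 8 HEP arrays lay above the Sham median and 3 of them above the highest Sham array, while the HAL arrays lay on both sides. The fit without the limit gave 0.33 in HEP (SE 0.11, unadjusted p = 0.00436, adjusted p = 0.26 in limma) and 0.0477 in HAL (adjusted p = 0.903 in limma). With a resultant length of 0.163 the placing on the circle was loose, and the exact permutation p-values were 0.0519 in HEP and 0.615 in HAL.

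**Figure D3:**
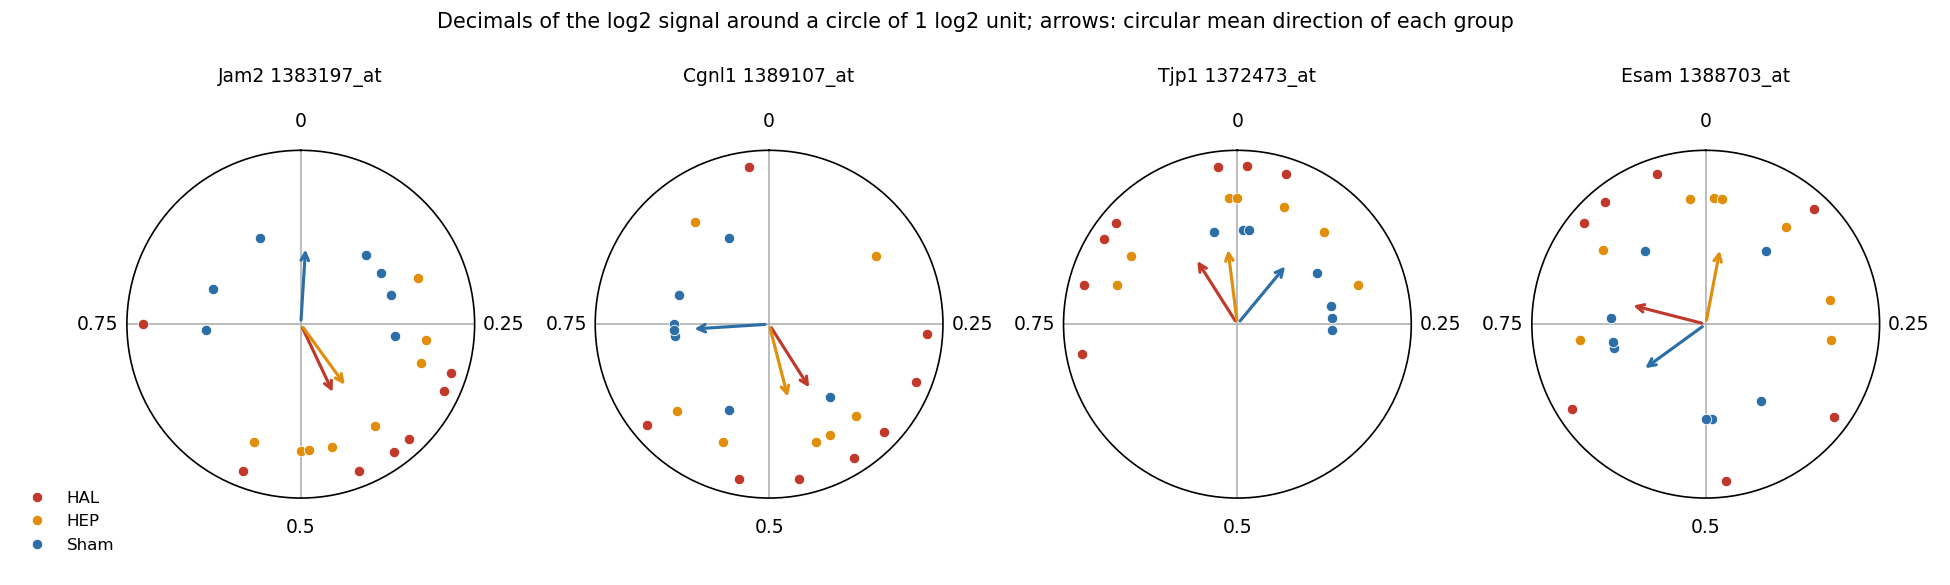
Decimals of the log2 signal of 4 junction probes around a circle of 1 log2 unit (0 at the top, clockwise), with HAL arrays on the outer ring, HEP arrays on the middle ring and Sham arrays on the inner ring. Arrows point to each group's circular mean, and their lengths carry no value. In Jam2 1383197_at the HAL and HEP arrows (0.43 and 0.40) point nearly opposite to Sham (0.01), and in Cgnl1 1389107_at (0.41 and 0.46) away from Sham (0.74).

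Among the scaffolds, Mpdz (MUPP1), whose PDZ domains bind claudins and JAMs, was the junction gene with the clearest difference. It read 9.40 to 10.12 in HAL (median 9.82, n = 6), 9.51 to 10.43 in HEP (median 9.81, n = 7) and 10.26 to 10.79 in Sham (median 10.42, n = 8). It was at 10 or above on 1 of 6 HAL, 1 of 7 HEP and 8 of 8 Sham arrays read. None of the 6 HAL arrays read reached the Sham range, and of the HEP arrays array 8 alone (10.43) did. HAL and Sham arrays did not overlap in 2.69% of near-10 probes. Means were 9.76 ± 0.27 in HAL, 9.82 ± 0.30 in HEP and 10.50 ± 0.20 in Sham (SD, n = 6, 7 and 8). The difference was -0.74 in HAL (SE 0.15, 95% interval -1.06 to -0.43, adjusted p = 0.00676 in limma) and -0.69 in HEP (SE 0.14, 95% interval -0.98 to -0.39, adjusted p = 0.0157 in limma). Among all near-10 probes 2.65% were lower in HAL and 0.99% in HEP. Both calls held without each array in turn, with adjusted p of at most 0.017 in HAL and 0.0399 in HEP in limma, and without the 3 arrays of low median (0.0252 and 0.0176 in limma). With the sample number as a block in the fit the HAL call held (adjusted p = 0.0342 in limma) and the HEP call ended (adjusted p = 0.0553 in limma). Of cell type markers near 10, 1 of 2 perivascular fibroblast and 1 of 4 pericyte markers were also lower in HAL, and 0 of 3 endothelial markers passed. The medians of these near-10 probes were -0.85, -0.02 and -0.23. In HEP the same lists had 0 calls and medians of -0.54, 0.02 and 0.07. By decimals their HAL medians were 0.09 (6 probes), 0.02 (2 probes) and -0.07 (1 probe), with 0 calls. The near-10 astrocyte, neuron, oligodendrocyte and choroid plexus markers had 0 calls in HAL, with medians of 0.18, 0.23, -0.09 and 0.03. The part of any cell type in the Mpdz difference was not tested.

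Tjp1 encodes ZO-1, the scaffold that links claudins and occludin to actin. On its probe at or above 10, 1372473_at, decimals were 0.72 to 1.05 in HAL (median 0.92), 0.80 to 1.20 in HEP (median 1.00) and 0.96 to 1.26 in Sham (median 1.09, n = 8 each). All 8 HAL arrays lay below the Sham median and 4 below the lowest Sham array, and 3 HEP arrays lay below it too. The shortest way between circular means was -0.20 in HAL (exact permutation p = 0.00559) and -0.13 in HEP (exact permutation p = 0.103). In the fit without the limit the HAL difference was -0.21 (SE 0.0699, unadjusted p = 0.00618) and did not pass over all probes (adjusted p = 0.216 in limma), nor did that of HEP (-0.13, adjusted p = 0.616 in limma). On this probe 7 cells had under 8 digits and were placed near the probe's mean. With these cells left missing the differences were -0.30 in HAL and -0.20 in HEP (adjusted p = 0.159 and 0.489 in limma). The probe below 10, 1395337_at, had overlapping groups, with exact permutation p = 0.644 in HAL and 0.931 in HEP.

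Cgnl1 (paracingulin), a cytoplasmic junction protein related to cingulin, had decimals of 0.26 to 0.98 in HAL (median 0.44), 0.16 to 0.90 in HEP (median 0.44) and 0.39 to 0.93 in Sham (median 0.74, n = 8 each) on its probe at or above 10, 1389107_at. In each model 7 of 8 arrays lay below the Sham median. The shortest ways were -0.33 in HAL (exact permutation p = 0.0143) and -0.28 in HEP (exact permutation p = 0.0382), and both differences were -0.22 in the fit without the limit (adjusted p = 0.385 and 0.487 in limma). The other probe, 1391021_at, below 10, had a positive shortest way, 0.20 in HAL (exact permutation p = 0.341) and 0.11 in HEP (exact permutation p = 0.222). The probes of this gene thus differed in sign.

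**Figure D4:**
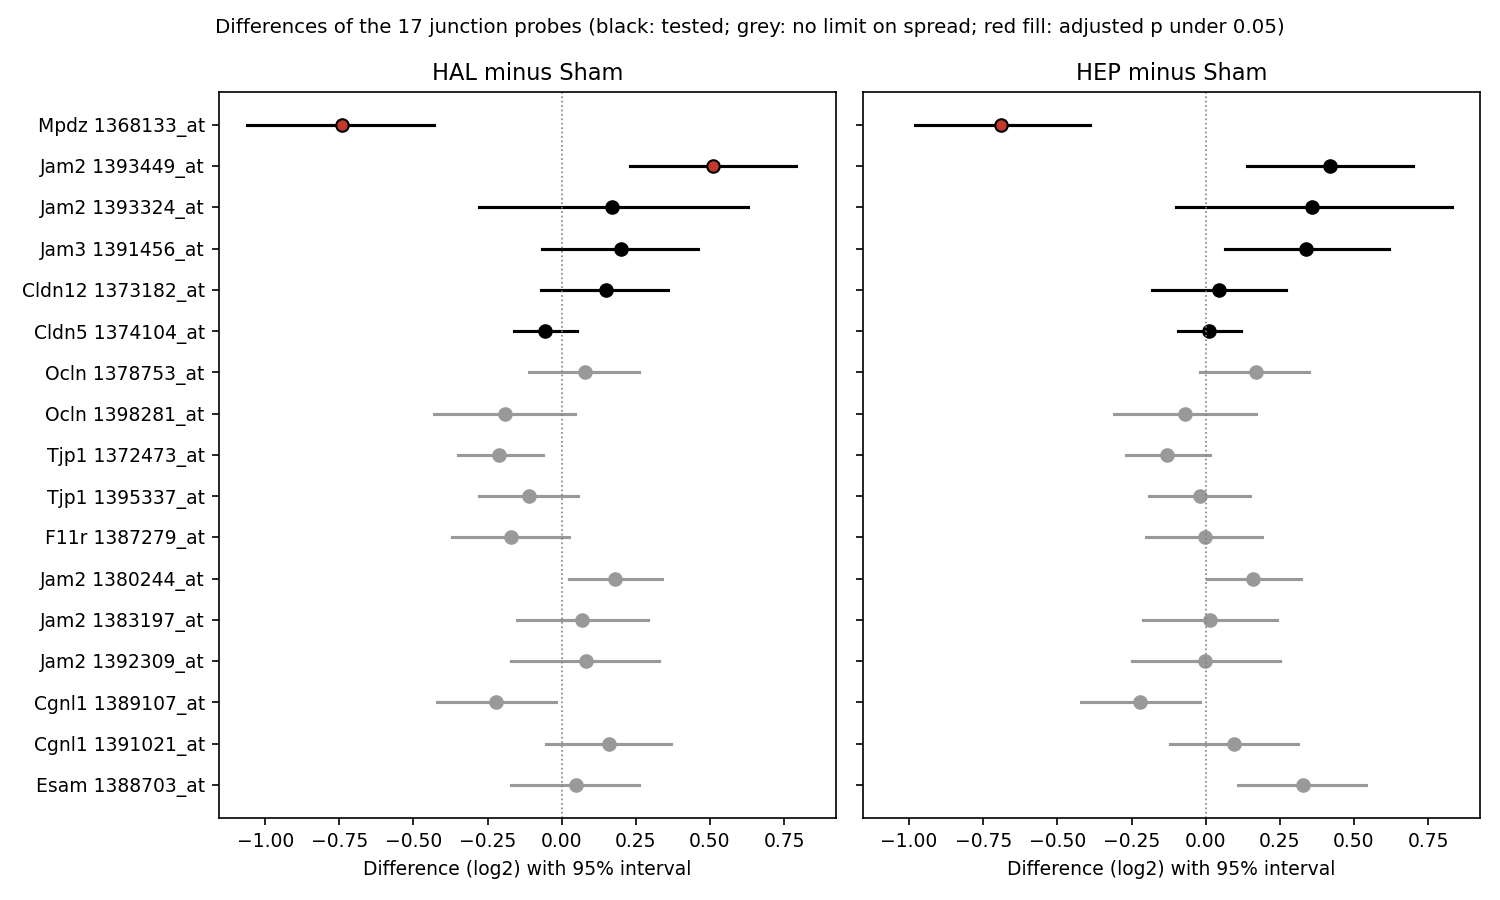
Differences (x axis, log2) of the 17 junction probes with 95% intervals, HAL minus Sham on the left and HEP minus Sham on the right. Black points are the 6 probes tested, red fill marks an adjusted p under 0.05, and grey points come from the fit without a limit on the resultant length, where the size is bounded by the circle. Mpdz stands at -0.74 and -0.69, and Jam2 1393449_at at 0.51 and 0.42.

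The models were also set against each other, to ask whether an ischaemic liver left in place and removal of the liver differ in their junction genes. No junction probe passed in HAL minus HEP, nor did any of the 2526 near-10 or 5754 decimal probes, of which 216 (8.55%) and 374 (6.5%) had an unadjusted p under 0.05 in limma. Of the 5 near-10 and 1 decimal junction probes 0 did. The difference was -0.0591 for Mpdz (95% interval -0.38 to 0.26), 0.0873 for Jam2 1393449_at (95% interval -0.20 to 0.38), -0.19 for Jam2 1393324_at (95% interval -0.64 to 0.26), -0.15 for Jam3 (95% interval -0.43 to 0.14), 0.10 for Cldn12 (95% interval -0.11 to 0.32) and -0.0687 for Cldn5 (95% interval -0.18 to 0.0383). The lowest unadjusted p among the untested probes was that of Esam, with a difference of -0.28 (unadjusted p = 0.0132, adjusted p = 0.654 in limma without the limit). It was the 1 of 12 probes with an unadjusted p under 0.05 there, against 6.46% of all probes.

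Other junction genes were taken from 3 further lists. The list of other tight junction genes also held Mfsd2a, Plvap and Cav1, which are not junction proteins. Of its 32 symbols, aliases included, 25 had a probe, and 0 of 4 near-10 and 0 of 3 decimal probes tested passed in either model. The one nearest to passing was Mfsd2a, a lipid transporter that holds down transcytosis in brain endothelium. It read 9.17 to 10.23 in HAL (median 9.41, n = 8), 9.15 to 10.46 in HEP (median 9.28, n = 8) and 9.82 to 10.39 in Sham (median 10.21, n = 6). Its differences were -0.54 in HAL (adjusted p = 0.167 in limma) and -0.71 in HEP (adjusted p = 0.0718 in limma). The HEP difference passed without HEP array 8 (-0.85, adjusted p = 0.00613 in limma) and without the 3 arrays of low median (-0.78, adjusted p = 0.0428 in limma). Of 26 adherens junction genes 25 had a probe, and 0 of 5 near-10 and 0 of 7 decimal probes passed. Ctnnb1, which encodes β-catenin, had decimals of 0.11 to 0.30 in HAL (median 0.21), 0.16 to 0.45 in HEP (median 0.19) and 0.29 to 0.42 in Sham (median 0.35, n = 8 each), and differences of -0.14 in HAL (adjusted p = 0.25 in limma) and -0.12 in HEP (adjusted p = 0.685 in limma).

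Of 43 symbols of junction regulators, aliases included, 37 had a probe. Of their 16 near-10 probes 2 were lower in HAL (2.65% of all near-10 probes) and 0 in HEP (0.99% of all). The list's median difference was -0.22 in HAL and -0.04 in HEP, against -0.03 and -0.00 over all near-10 probes. Tspan12, a partner of the Norrin receptor Fzd4, had no overlap of the HAL and Sham arrays read, as for 2.69% of near-10 probes. It read 9.17 to 9.99 in HAL (median 9.78, n = 6), 9.60 to 10.95 in HEP (median 10.13, n = 7) and 10.23 to 10.73 in Sham (median 10.51, n = 7). It fell by 0.80 in HAL (adjusted p = 0.0183 in limma), a call that ended without the 3 arrays of low median (difference -0.66, adjusted p = 0.105 in limma). Adgra2 (Gpr124), a co-receptor for Wnt7 ligands, read 9.15 to 10.35 in HAL (median 9.60, n = 6), 9.48 to 10.70 in HEP (median 9.66, n = 8) and 10.25 to 10.58 in Sham (median 10.48, n = 5). It fell by 0.77 in HAL (adjusted p = 0.0448 in limma). This call ended without the 3 arrays of low median (difference -0.61, adjusted p = 0.178 in limma) and without any one of HAL arrays 2, 4, 5, 6 and 8 and Sham arrays 1, 2, 4, 6, 7 and 8 (adjusted p 0.0518 to 0.101 in limma). It ended too with leading zeros put back into short cells (difference -0.52, adjusted p = 0.0939 in limma). The HEP differences were -0.37 for Tspan12 (adjusted p = 0.362 in limma) and -0.61 for Adgra2 (adjusted p = 0.112 in limma, and 0.0119 without HEP array 8). The difference between the models did not pass for either gene (adjusted p = 0.581 for Tspan12 and 0.87 for Adgra2 in limma).

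The probes whose pattern over the arrays was most like Mpdz were those of Slain2 (Pearson r = 0.905 over 18 arrays), Atp10a (r = 0.859 over 21 arrays) and Tpm1 (r = 0.838 over 19 arrays), among 1821 near-10 probes of 1 gene. For Cldn5 they were Ddost (r = 0.711), Zfp207 (r = 0.711) and Cyb561 (r = 0.639) over 24 arrays, among 3520 probes compared by decimals. These are the highest of many correlations over arrays that share group and normalization, and are given as a description.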

How the data were processed

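Biotin-labelled RNA of 24 samples was hybridised to 1 array each. Per the submitters' processing notes the authors made the values with RMA, a method that returns log2 signals; no version is stated in the sources used here. The deposited values, as provided here, are other than log2 signals: 746376 whole numbers taken as their decimals, 4.63% of them under 8 digits. Per the labels' protocols a whole-transcript kit was used, while the probe identifiers are those of a 3' expression array; this was not resolved. The decimals of single probes clustered: their median resultant length was 0.469, and 0.226 once each array had been shuffled.

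Near-10 probes were read as levels and other probes as decimals around the circular mean, with short cells placed at the zero nearest to it. A reading of at least 2 arrays a group was needed. The test planned for log2 values was kept. Group means were fitted on all arrays together (limma 3.58.1, R 4.3.3, eBayes with no trend), and p-values were Benjamini-Hochberg adjusted over the probes of each reading (2526 near 10 and 5754 by decimals, 20.1% of the other probes). Reading and encoding were tested on simulated data. Python 3.11.15 with numpy 2.4.6, pandas 2.3.3 and scipy 1.17.1 read the digits. Alternatives were the limit on clustering, short cells, the near-10 range, array centring and weights, gene means, 2-group fits, a replicate block and leaving out arrays. Same-numbered arrays correlated at -0.08 to 0.17, so the numbers showed little sign of pairing samples, though low correlations cannot show its absence. All member probes are named. Of other junction lists, up to 4 passing probes a list are named, or else the one with the smallest p; likeness is the 3 highest correlations. The members and lists were chosen with earlier results of these data known. Protein sequences were not used here.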

Additional observations from a re-analysis of the deposited data

Results flagged for a closer look

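HEP array 8 stood apart from the other HEP arrays for Mpdz. It read 10.43, while the other 6 HEP arrays read 9.51 to 9.85, and the gap took 0.63 of the whole range of the 7 arrays. It was the 1 such gap among 51 groups checked, and about 1 in 20 groups would show one by chance. Without this array the HEP difference of Mpdz was -0.79 (adjusted p = 0.00108 in limma). The same array had the lowest HEP reading of the Jam2 probe 1393449_at, 9.85. A cell of 8 digits can also be a signal below 10 that lost a 0, and in that case 10.43 would be too high. Why array 8 stood apart was not tested.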

How the results depend on the processing

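The near-10 calls of Mpdz and Jam2 in HAL became 1, that of Mpdz, with gene means, with the replicate block, with leading zeros put back into short cells and without the 3 arrays of low median, and were 1 to 2 with 1 array left out. In HEP they were 2 with array weights, 0 with the replicate block and 1 to 2 with 1 array left out. With the replicate block Jam2 1393449_at in HAL and Mpdz in HEP each reached an adjusted p of 0.0553 in limma, and the HAL calls of Tspan12 (0.0654) and Adgra2 (0.0512) ended too. Same-numbered arrays showed little sign of pairing, and arrays correlated best with their own number in only 1 to 2 of 8. Low correlations cannot show that samples were not handled in numbered sets. Over all near-10 probes HAL calls were 94, 42 without the 3 arrays, and 63 to 99 with 1 array left out. HEP calls were 55, 127 with array weights, and 29 to 137 with 1 array left out: 137 without HEP array 8, 34, 34, 33 and 29 without HEP arrays 4, 5, 6 and 7, and 35 without Sham array 6. HAL minus HEP gave 1 call with the block. With arrays centred the HAL split was 47 higher and 56 lower, against 27 and 67. By decimals HAL calls (0) became 1 in a 2-group fit or with gene means, 5 with centring, 9 from a resultant length of 0.5, 51 without the limit, and 0 to 1 with 1 array left out. HEP calls (1) became 0 in a 2-group fit, with weights, gene means, the block, short cells missing or a resultant length of 0.8, then 19 from 0.5, 2 without the limit, and 0 to 2 with 1 array left out. No junction probe passed by decimals in any of these.

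Signs turned only for small differences. Without the 3 arrays these were Cldn5 in HAL (0.000215), Cldn12 in HEP (-0.0137, and so without Sham array 3 alone), F11r in HEP (0.0369) and Cgnl1 1389107_at in HAL minus HEP (-0.0748, and -0.00472 with centring). With 1 array left out, HEP differences were -0.0137 to 0.0764 for Cldn12 and -0.0117 to 0.0459 for Cldn5. HAL minus HEP was -0.0302 for Jam2 with gene means, and -0.13 to 0.0429 for Mpdz and -0.0282 to 0.0166 for Ctnnb1 with 1 array left out; without the 3 arrays it was 0.000865 for Adgra2 and -0.0231 for Mfsd2a.

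Integer parts were not read outside the near-10 range, so a whole-unit change of Cldn5, Ocln, Tjp1, F11r, Cgnl1 or Esam would not be seen. Signal over background could not be judged. The causes of the moved counts were not tested.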
